A study of Mus musculus with 24 samples.

Results

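The genes of mitosis and of the G2/M transition, 43 genes in all, were followed through 24 RNA sequencing libraries of hematopoietic stem cells (HSCs) from mouse, cells of the marrow from which every blood lineage descends. The genes were taken from a list of names (cyclins, mitotic kinases, checkpoint, kinetochore, spindle and cytokinesis proteins), and all 43 were found among the 55487 gene IDs of the deposited tables. They were chosen by name and role and not by a rule on measured values, although earlier results of these data were known. The series concerns PUS10, a pseudouridine synthase that isomerises uridine in RNA, and HSC aging. It holds 3 experiments. In the first, HSCs with the genotype label PUS10-OE (overexpression, n = 3) were set against Vector (n = 3). In the second, miR139-KD (knockdown of the microRNA miR-139, n = 6) was set against NTC, a non-target control (n = 6). In the third, Pus10-KO (knockout, n = 3) was set against Pus10-WT (n = 3). The labels give the cell type and the genotype of each library, and no strain, age, culture step, insert or knockdown agent. Whether libraries of 1 group stem from different animals is not stated, so the p-values below reflect library-to-library spread, and some of that may be technical.

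A cell enters mitosis when cyclin B and the kinase CDK1 become active together, after which Polo-like and Aurora kinases build the spindle and the spindle checkpoint holds the anaphase-promoting complex (APC/C) back until every chromosome is attached. Most of the genes involved are transcribed together late in the cycle and are silent in resting cells, so their transcripts serve as a readout of how many cells are cycling. Adult HSCs are known for being mostly quiescent in the marrow and for entering the cycle when they are placed in culture, transplanted or stressed. Many of these promoters carry a cell cycle genes homology region, bound by the MuvB complex with its partners, and CCAAT boxes, bound by NF-Y.

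Most promoters of the 43 genes held these letters. RefSeq promoter windows (GRCm38.p6, 250 bases before to 50 after a gene's start) were at hand for 36 of the 43 genes, in 39 windows, because some genes have more than 1 start. Windows were searched on both strands. TTTGAA, the letters of the homology region, stood in 29 of 39 windows (74.4%) against 17.9% of 32851 windows of all genes. With the variant TTCGAA counted too, the figure was 30 of 39 (76.9%) against 19.2%, and within 50 bases of the start it was 27 of 39 (69.2%) against 5.31%. CCAAT was found in 31 of 39 windows (79.5%) against 37.4%, and 14 windows (35.9%) held 3 or more copies, against 3.21% of all windows. Both kinds of letters stood together in 26 of 39 windows (66.7%) against 7.53%. CCAAT and TTTGAA can share a letter at their ends, and a match describes letters only. Genes whose windows held no homology letters were Birc5, Ccnb1, Cenpe, Cks2, Gtse1, Nuf2, Nusap1 and Tacc3. The 120 bases before the start are shown for 6 genes, with the matched letters in capitals. Ccnb2, Top2a and Kif11 are examples of different layouts, and Hmmr, Cenpf and Kif20b are the genes on which the comparisons below turn most.
Ccnb2 chr9:70421555-70421674 minus strand: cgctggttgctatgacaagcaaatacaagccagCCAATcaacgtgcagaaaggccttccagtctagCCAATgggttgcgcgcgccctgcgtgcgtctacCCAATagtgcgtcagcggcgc
Top2a chr11:99024190-99024309 minus strand: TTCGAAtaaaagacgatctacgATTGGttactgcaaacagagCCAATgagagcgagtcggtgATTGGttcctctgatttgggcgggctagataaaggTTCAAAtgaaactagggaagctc
Kif11 chr19:37376262-37376381 plus strand: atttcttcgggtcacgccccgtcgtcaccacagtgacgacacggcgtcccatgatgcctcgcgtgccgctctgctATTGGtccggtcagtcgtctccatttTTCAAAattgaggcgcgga
Hmmr chr11:40733438-40733557 minus strand: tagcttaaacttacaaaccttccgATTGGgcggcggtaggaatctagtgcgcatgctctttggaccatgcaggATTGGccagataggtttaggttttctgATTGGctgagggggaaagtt
Cenpf chr1:189688087-189688206 minus strand: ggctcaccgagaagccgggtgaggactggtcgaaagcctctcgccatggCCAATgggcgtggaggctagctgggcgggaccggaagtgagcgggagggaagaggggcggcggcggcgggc
Kif20b chr19:34922238-34922357 plus strand: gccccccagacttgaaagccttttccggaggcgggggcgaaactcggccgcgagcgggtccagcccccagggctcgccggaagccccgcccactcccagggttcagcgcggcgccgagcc
Read 5′ to 3′ on the gene's own strand, Top2a carries both homology patterns and 3 CCAAT boxes in its stretch, and Kif11 has 1 of each. Ccnb2 and Hmmr show 3 CCAAT boxes each, and their homology letters lie outside the stretch but inside the 300-base window. Cenpf has 1 CCAAT box in its stretch, and the stretch of Kif20b, the gene with the highest estimate after PUS10 overexpression, holds no match to either pattern. Cenpf and Kif20b both have homology letters after the start, outside the stretch but inside the 300-base window. The window of Kif20b holds no CCAAT.

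Counts over all genes ran from 34.2 M to 47.3 M (mega) per library in Vector, from 40.9 M to 42.6 M in PUS10-OE, and from 9.87 M to 18.2 M in the other 4 groups. Stem cell markers (Kit, Ly6a, Slamf1, Procr, Mecom, Hlf, Fgd5) were all detected in every library but 1 NTC library, where 6 of 7 were. Pus10 checked the labels of the first experiment, with 57.4, 102 and 87.9 CPM in Vector and 315, 274 and 258 CPM in PUS10-OE. It did not check those of the knockout experiment: libraries labelled Pus10-KO held 32.9, 31.3 and 33.4 CPM, not less than the 17.9, 29.0 and 30.7 CPM of Pus10-WT. Counts over the whole gene cannot show the loss of a part of it, and directions drawn from these libraries rest on their labels. Of the 43 genes, 12 share exon bases with another gene, among them Kif20a (1271 bases with Cdc23) and Ube2c (592 bases with Tnnc2). Reads of such pairs cannot be told apart in libraries that do not mark strand. Ccnb1 and Ccnb2 have annotated pseudogenes, Ccnb1-ps and Ccnb2-ps, and their counts are uncertain for that reason.

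The level of the mitotic genes differed most between the 3 experiments, in control libraries as in treated ones. Levels are TMM-normalised CPM (counts scaled to a common library total), set over all 24 libraries. Summed over the 43 genes, they came to 7418 to 11411 CPM in the 6 libraries of the overexpression experiment, 4106 to 7006 CPM in the 12 of the miR-139 experiment and 362 to 2139 CPM in the 6 of the knockout experiment. As a share of all counts, the genes took 0.707% to 0.872% in Vector, 0.420% to 0.628% in NTC and 0.0383% to 0.230% in Pus10-WT. The ranges of summed CPM did not overlap between the 3 experiments. As shares, PUS10-OE took 0.773% to 0.998%, miR139-KD 0.503% to 0.728% and Pus10-KO 0.0804% to 0.148%. The highest miR139-KD share lay above the lowest Vector share, so by share the overexpression and miR-139 experiments overlapped. In bulk libraries, fewer cycling cells and less mitotic RNA per cell cannot be told apart. Depth was highest in the overexpression experiment. The miR-139 libraries had 9.87 M to 14.7 M counts and the knockout libraries 11.9 M to 18.2 M. The part of depth in the level of the mitotic genes was not tested. No group was shared between experiments, so other differences between them cannot be told apart from the level.

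Markers of cell types moved with the experiment too. The 4 multipotent progenitor markers (Flt3, Cd48, Cd34, Satb1) summed to 1004 to 1023 CPM in Vector, 567 to 1016 CPM in NTC and 59.5 to 67.6 CPM in Pus10-WT. The 7 stem cell markers summed to 538 to 607 CPM in Vector, 370 to 592 CPM in NTC and 1409 to 1639 CPM in Pus10-WT. The 11 granulocyte and monocyte markers came to 65.7 to 103 CPM in Vector, 1596 to 19171 CPM in NTC and 502 to 764 CPM in Pus10-WT, with Elane, S100a9 and Ngp at 0 in all Vector libraries and Ctsg at 0 in all Pus10-WT libraries. The part of these cells in the level of the mitotic genes was not tested.

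**Figure D1:**
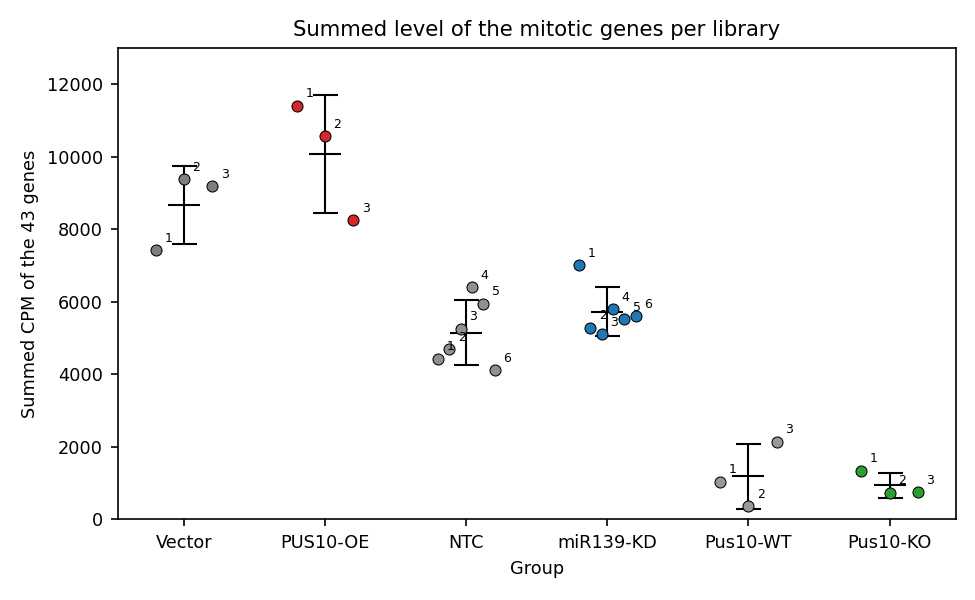
Summed TMM-normalised CPM of the 43 mitotic genes (vertical axis) in each of 24 libraries (points, numbered by replicate) by group, with bars at the mean and ± SD. All libraries of the overexpression experiment lie at or above 7418 CPM, and all of the knockout experiment lie at or below 2139 CPM.

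Every library of the overexpression experiment lay above every library of the knockout experiment in 42 of 43 mitotic genes, where 20.5% of 14171 genes with a mean of at least 1 CPM did so. The exception was Aspm, a spindle pole protein. The miR-139 experiment lay wholly above the knockout experiment in 28 of 43 genes (7.73% of all genes). The overexpression experiment lay wholly above the miR-139 experiment in 21 of 43 genes, where the share over all genes was 17.0%. In the opposite direction the count was 1 gene (12.6% over all genes). That gene was Mki67, which encodes the proliferation antigen Ki-67, a coat of mitotic chromosomes, with 343 ± 59.3 CPM in NTC (SD, n = 6) and 156 ± 20.5 CPM in Vector (n = 3).

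The cyclins that drive entry followed this order of the experiments in their mean levels. Ccnb1, which encodes cyclin B1, had 473, 675 and 683 CPM in the Vector libraries. In NTC it ranged from 77.1 to 223 CPM with a median of 160 CPM. In Pus10-WT it had 19.5, 0.633 and 122 CPM. The Vector libraries were all above the NTC libraries, and the second Pus10-WT library was almost empty of Ccnb1. The ratio of mean levels, Vector over Pus10-WT, ran from 2.40 for Cenpf to 17.7 for Ttk, the checkpoint kinase MPS1. NTC over Pus10-WT ran from 1.77 for Racgap1 to 10.1 for Cdca3. The third Pus10-WT library set much of these ratios. Without it, the median ratio of the 43 genes was 16.6 in place of 9.17 for Vector and 9.37 in place of 4.30 for NTC, that of Ttk for Vector was 40.2, and that of Cdca3 for NTC was 29.2. Top2a, Mki67, Cenpf, Aspm and Cenpa had lower means in Vector than in NTC, with ratios of 0.759, 0.454, 0.571, 0.608 and 0.938, while the other 38 genes had higher ones.

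**Figure D2:**
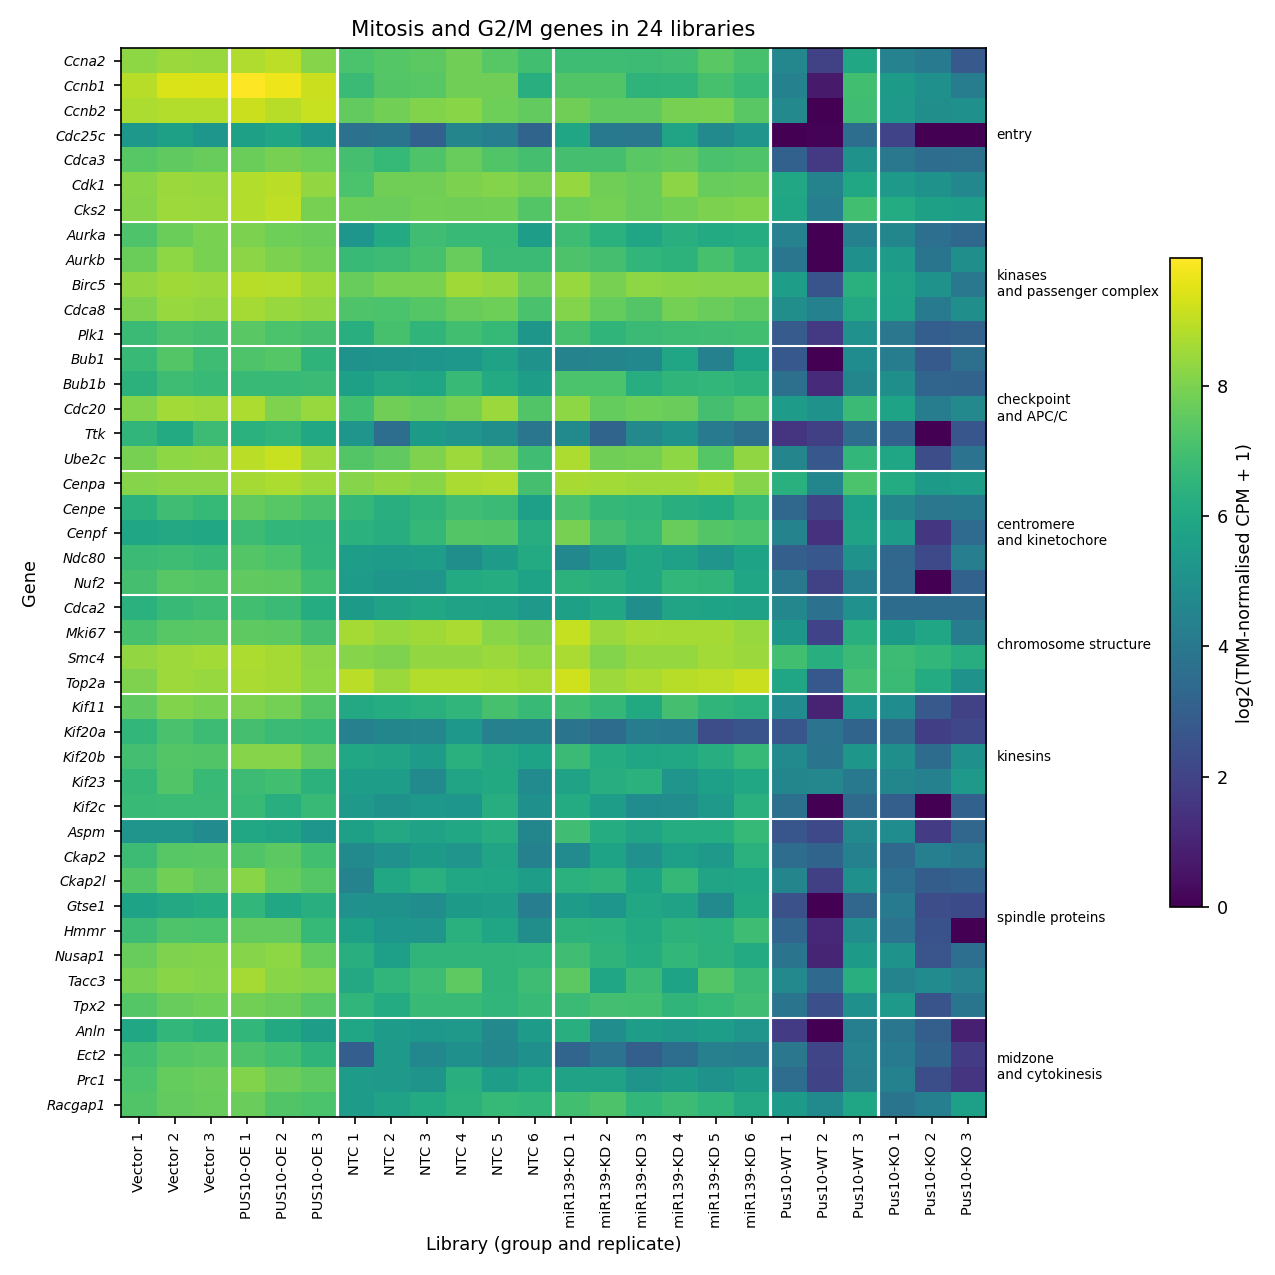
Heat map of log2(TMM-normalised CPM + 1) for the 43 mitotic genes (rows, by role) in 24 libraries (columns, by group and replicate), where yellow is high and dark blue is low. The 6 columns of the knockout experiment are the darkest, and its second Pus10-WT column is the darkest of all, with 7 genes at 0.

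Per kilobase of annotated exon, Cks2 had the highest level. Over the 12 control libraries Cks2, a small subunit that binds cyclin-dependent kinases, had 293 CPM per kb. Ccnb2 (cyclin B2) had 155, Cdc20, the activator that switches on the APC/C, had 111, Ube2c, the ubiquitin-conjugating enzyme of the APC/C, had 74.8, and Birc5 (survivin, a subunit of the chromosomal passenger complex) had 68.0. The lowest were Aspm at 3.28, Cdc25c (a phosphatase that activates CDK1) at 3.70, Anln (anillin, of the cytokinetic ring) at 4.63, Cenpf (a large kinetochore protein) at 4.79 and Kif23 (a kinesin of the central spindle) at 7.18 CPM per kb. Cks2 ranked first in Vector, NTC and Pus10-WT alike, and Ccnb2 and Cdc20 took the next 2 places in each. At the other end the order changed with the group: Aspm was the lowest in Vector, and Cdc25c in NTC and Pus10-WT. Kif23 ranked 38 of 43 in Vector and in NTC but 28 in Pus10-WT, and Cenpf ranked 42, 35 and 38.

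The mitotic genes tended to be high or low in the same libraries of a group, and their spread was widest in Pus10-WT. The 3 Pus10-WT libraries summed to 1028, 362 and 2139 CPM, a highest-to-lowest ratio of 5.91, against 1.27 in Vector, 1.38 in PUS10-OE, 1.56 in NTC, 1.37 in miR139-KD and 1.83 in Pus10-KO. The median SD of log2(CPM + 1) over the mitotic genes was 1.68 in Pus10-WT and 0.837 in Pus10-KO, where genes of at least 5 CPM in general had 0.308 and 0.323. In the other 4 groups the spread of the mitotic genes stood closer to that of all genes, with 0.226 against 0.165 in Vector, 0.293 against 0.233 in PUS10-OE, 0.420 against 0.404 in NTC and 0.358 against 0.448 in miR139-KD.

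Single libraries set much of this spread. The third Pus10-WT library was the highest of its group in 38 of 43 genes (34.3% of all genes), and the second was the lowest in 39 (34.1%). In the second, 7 genes were at 0, which at its depth of 16.4 M counts allows a level of up to 0.183 CPM (3 counts, counting error only), while 36 were detected. Ccnb2 had 440 and 1871 counts in the other Pus10-WT libraries and 0 in this one. Among Pus10-KO libraries the first was the highest in 35 genes (34.2%). The first Vector library was the lowest of its group in 39 genes (36.9%), and the third PUS10-OE library was the lowest of its group in 37 (39.7%). The first miR139-KD library was the highest of 6 in 21 genes (17.6%). A list of 50 other mitotic genes, such as the condensin and shugoshin genes, followed the same libraries: the third Pus10-WT library was the highest in 39 and the second the lowest in 42. The 35 genes of G1/S and replication did so in part, since the second Pus10-WT library was the lowest in 32 of them, whereas the first, not the third, was most often the highest (22 genes).

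After PUS10 overexpression no mitotic gene passed the test, while 9 genes, led by kinetochore genes, had separated groups with the higher values in PUS10-OE. In edgeR's quasi-likelihood test 0 of 14834 genes had an adjusted p under 0.05 (0% called), and so did 0 of 43 mitotic genes. Pus10 itself, the overexpressed gene, was not called by edgeR either, although its groups were separated. The lack of calls therefore does not show that the mitotic genes were unchanged. At an unadjusted p under 0.05, edgeR counted 1215 genes (8.19%), and DESeq2 called 250 genes (1.52%). Among the mitotic genes, 9 were higher at an unadjusted p under 0.05 (4.47% of all genes) and 0 were lower (3.72%). In 9 genes every PUS10-OE library lay above every Vector library (9.15% of all genes), and in 0 genes below (6.17%). The median log2 fold change of the 43 genes was 0.16, with 33 above 0 and 10 below, and that of all genes was 0.01. Scaled by library size alone, 26 were above 0 and 17 below.

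Kinetochore and centromere genes stood highest by role. Cenpf (chr1:189640606-189688086, GRCm38) had 57.2, 62.5 and 60.6 CPM in Vector and 113, 95.6 and 92.2 CPM in PUS10-OE. The groups did not overlap, and the lowest PUS10-OE library lay well above the highest Vector library. Its log2 fold change was 0.72 (SE 0.118, edgeR adjusted p = 0.298, DESeq2 adjusted p = 5.48e-05). Cenpe, the kinesin that carries chromosomes to the spindle equator, had 81.6, 119 and 99.6 CPM in Vector and 187, 163 and 137 CPM in PUS10-OE, 0.68 higher on the log2 scale (SE 0.159; adjusted p = 0.358 by edgeR). Cenpa, the histone H3 variant that marks centromeres, was tight in both groups, with 293 ± 9.05 CPM in Vector and 393 ± 33.9 CPM in PUS10-OE (SD, n = 3 each) and was 0.41 higher on the log2 scale (SE 0.0852; adjusted p = 0.337 by edgeR). The outer kinetochore pair Ndc80 and Nuf2 had overlapping groups. All 5 genes of this role had positive estimates, with a median of 0.41.

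Among the 5 genes with a Kif name, Kif20b alone had a positive estimate. Kif20b (chr19:34922361-34975745), a kinesin of the midzone and midbody, had 126, 154 and 152 CPM in Vector and 281, 280 and 188 CPM in PUS10-OE. The third PUS10-OE library was the nearest to Vector, and the groups did not overlap. The log2 fold change was 0.77 (SE 0.159, edgeR adjusted p = 0.337), the highest estimate of the 43. Kif11, Kif20a, Kif23 and Kif2c had estimates below 0, and the median of the role was -0.11. The midzone and cytokinesis genes leaned the same way, with a median of -0.18 and 3 of 4 below 0, of which Ect2, the exchange factor that activates RhoA at the cleavage plane, had -0.37 (SE 0.194, edgeR adjusted p = 0.714).

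The entry genes were all above 0, with a median of 0.27 over 7 genes. Ccnb2 had 418, 450 and 450 CPM in Vector and 574, 470 and 558 CPM in PUS10-OE, which did not overlap (log2 fold change 0.27, SE 0.101, edgeR adjusted p = 0.549). Ccna2, Ccnb1 and Cdk1 had estimates of 0.27, 0.36 and 0.32 with overlapping groups, since the third PUS10-OE library lay below the highest Vector library in each. Of the APC/C genes, Ube2c had 238, 310 and 322 CPM in Vector and 488, 555 and 360 CPM in PUS10-OE, 0.67 higher on the log2 scale (SE 0.167; adjusted p = 0.364 by edgeR), while Cdc20 had overlapping groups and an estimate of 0.01 (95% interval -0.44 to 0.45). Birc5 had a log2 fold change of 0.30 (SE 0.101) and separated groups, whereas its partner Aurkb had 0.02 (SE 0.15). Aurka and Plk1 had 0.13 and 0.21. Aspm at 0.61 (SE 0.213) and Cdca3, an entry gene, at 0.25 (SE 0.105) completed the 9 separated genes. Top2a, which untangles sister chromatids, and Mki67 had 0.17 and 0.02.

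**Figure D3:**
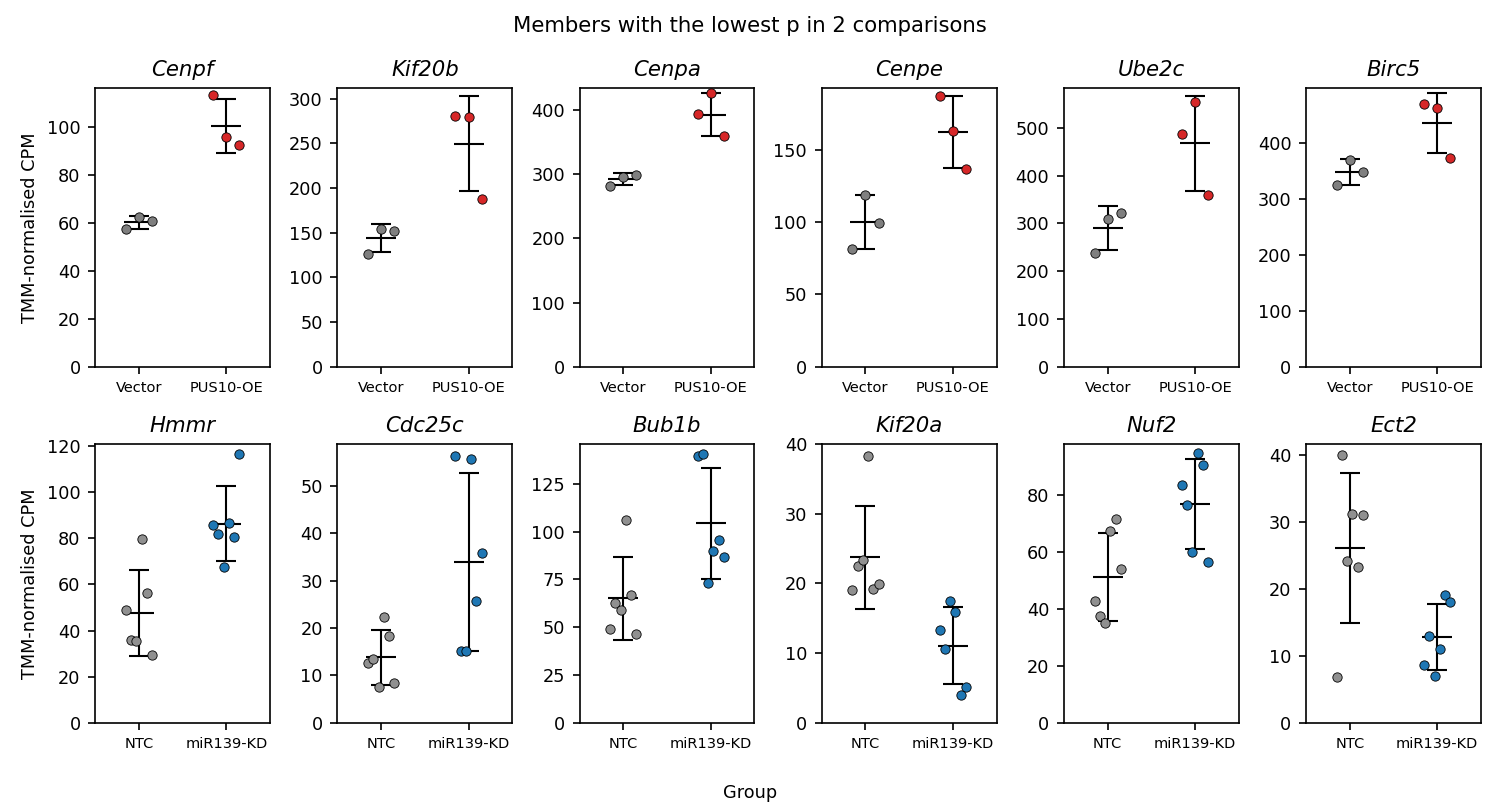
TMM-normalised CPM (vertical axes, starting at 0) of the 6 mitotic genes with the lowest p in PUS10-OE against Vector (top) and in miR139-KD against NTC (bottom), with 1 point per library and bars at the mean ± SD. The groups are separated in all 6 genes of the top row and, in the bottom row, in Kif20a alone.

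Fitted with DESeq2, 5 mitotic genes had an adjusted p under 0.05 (1.52% of all genes) and were higher in PUS10-OE: Cenpa, Cenpe, Cenpf, Kif20b and Ube2c. Single libraries moved the median: without the first Vector library it was 0.04, with 24 of 43 genes above 0, and without the first PUS10-OE library it was 0.06. Markers of other cells also differed. Multipotent progenitor markers summed to 1004 to 1023 CPM in Vector and 722 to 750 CPM in PUS10-OE. The 6 megakaryocyte markers came to 168 to 193 CPM and 266 to 497 CPM, with Gp1bb at 0 in all Vector libraries, and the 11 erythroid markers to 1896 to 2179 CPM and 2267 to 2712 CPM, with Hba-a2 and Ermap at 0 in all 6 libraries. The 5 plasma cell markers came to 46.9 to 70.5 CPM and 14.1 to 39.9 CPM, with Igkc at 0 in all 6. The part of these cells in the differences of the mitotic genes was not tested.

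Of the lists around the 43 genes, the 50 other mitotic genes had 7 higher and 0 lower at an unadjusted p under 0.05 and 0 called, with a median of 0.10. The lowest p belonged to Cdkn3, a phosphatase of CDKs, which was 0.53 higher on the log2 scale (SE 0.105; adjusted p = 0.337 by edgeR). The 35 genes of G1/S and replication had 1 higher and 5 lower with a median of -0.04. Their lowest p belonged to Mcm7, a subunit of the replicative helicase, at -0.33 (SE 0.0917, edgeR adjusted p = 0.411). Among 22 regulators of mitotic transcription 1 was higher (Rb1, the retinoblastoma gene, 0.79) and 1 lower (Lin9, a MuvB subunit, -0.37), and among 17 tested brakes, G1 cyclins and their kinases 1 was higher (Cdk6, a G1 kinase, 0.31).

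**Figure D4:**
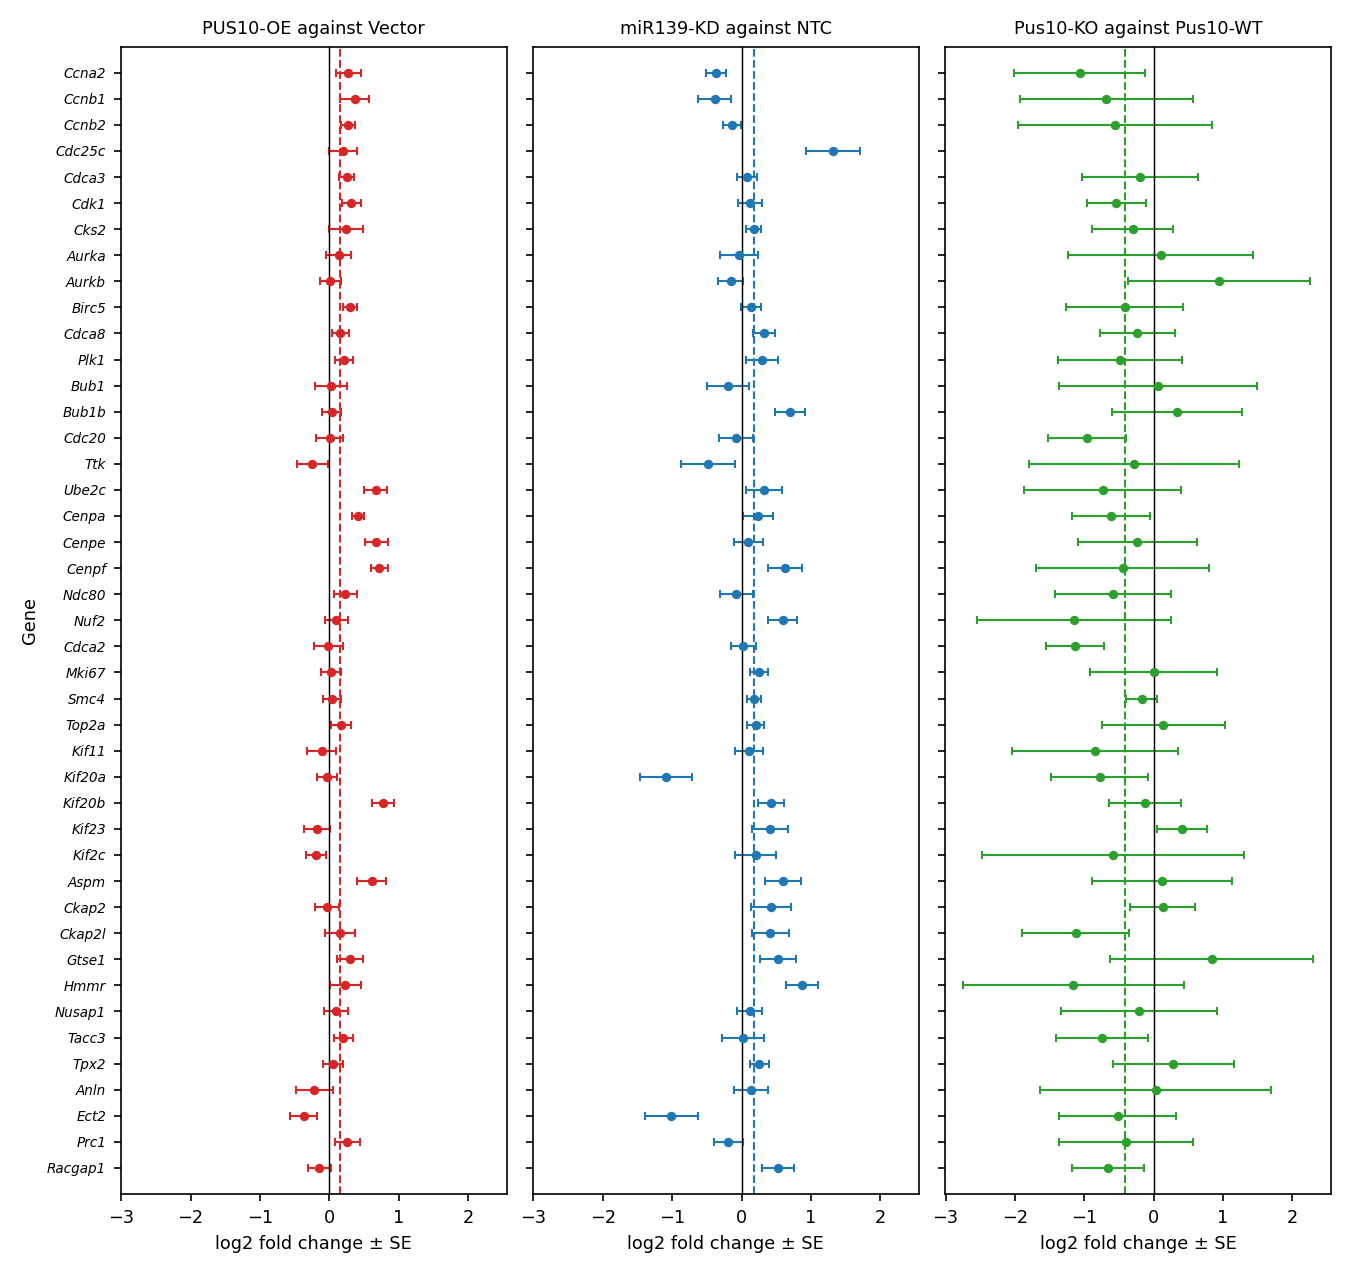
log2 fold change ± SE from edgeR (horizontal axis) of each mitotic gene (rows, by role) in the 3 comparisons, with dashed lines at the median of the genes tested. The medians lie at 0.16, 0.18 and -0.41, and the bars of the knockout comparison are the widest; Cdc25c was not tested there and has no point.

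With knockdown of miR-139 no mitotic gene passed the test, and the estimates lay in both directions. edgeR called 361 of 13295 genes (2.72%) and 0 of 43 mitotic genes, and 16.0% of all genes had an unadjusted p under 0.05. At an unadjusted p under 0.05, 8 mitotic genes were higher (8.04% of all genes) and 3 were lower (8.0%). The median log2 fold change was 0.18, with 31 genes above 0 and 12 below, against 0.02 for all genes. The groups were separated in 1 mitotic gene, which was lower in miR139-KD (1.80% of all genes), and in 0 genes that were higher (1.58%).

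Spindle genes had the highest median of any role, led by Hmmr (chr11:40701395-40733422), the hyaluronan-mediated motility receptor that binds spindle microtubules. It ranged from 29.4 to 79.8 CPM with a median of 42.5 CPM in NTC, and from 67.4 to 116 CPM with a median of 83.8 CPM in miR139-KD. Of the NTC libraries, only the fourth reached into the miR139-KD range. The log2 fold change was 0.87 (SE 0.226, edgeR adjusted p = 0.0547). Without the fourth NTC library the edgeR adjusted p was 0.0146, in a fit that called 1.74% of all genes. Hmmr was also called by DESeq2 (adjusted p = 0.00738; 6.51% of all genes called), by limma-voom (0.0334; 3.94%) and by edgeR on genes of at least 10 CPM (0.025; 5.08%). With all 6 groups in 1 fit, the edgeR adjusted p of Hmmr was 0.439. No mitotic gene was called by edgeR with the replicate number as a block, or without any single library other than the fourth NTC library. All 8 spindle genes had positive estimates, with a median of 0.42, and Aspm was at 0.60 (SE 0.258).

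Cdc25c and Bub1b came next. Cdc25c ranged from 7.52 to 22.3 CPM in NTC (median 13.1) and from 15.04 to 56.4 CPM in miR139-KD (median 30.8). NTC libraries 4 and 5 overlapped with miR139-KD libraries 2 and 3, and the log2 fold change was 1.32 (SE 0.396, edgeR adjusted p = 0.0979, DESeq2 adjusted p = 0.022). Bub1b, which encodes the checkpoint protein BUBR1, ranged from 46.2 to 106 CPM in NTC (median 60.9) and from 73.2 to 141 CPM in miR139-KD (median 92.7), where the fourth NTC library again was the one that overlapped. Its log2 fold change was 0.70 (SE 0.22, edgeR adjusted p = 0.117). DESeq2 gave an adjusted p of 0.0437, and edgeR gave 0.0376 without the fourth NTC library. Under limma-voom the adjusted p was 0.105 for Bub1b and 0.17 for Cdc25c. By edgeR it was 0.062 and 0.0528 on genes of at least 10 CPM, and 0.356 and 0.423 with all 6 groups in 1 fit. Of the kinetochore genes, Nuf2 was at 0.60 (SE 0.208, edgeR adjusted p = 0.159) and Cenpf at 0.62 (SE 0.244, edgeR adjusted p = 0.21). Racgap1, of the centralspindlin complex, and Kif20b were at 0.52 and 0.42.

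The 3 genes that were lower at an unadjusted p under 0.05 were Kif20a, Ect2 and Ccna2. Kif20a, a kinesin of the central spindle, ranged from 19.1 to 38.3 CPM in NTC (median 21.2) and from 4.05 to 17.5 CPM in miR139-KD (median 11.9). The groups did not overlap. The log2 fold change was -1.09 (SE 0.372, edgeR adjusted p = 0.151), and reads shared with Cdc23 leave it uncertain. Ect2 ranged from 6.76 to 39.9 CPM in NTC (median 27.5) and from 7.03 to 19.1 CPM in miR139-KD (median 11.9), with the first NTC library below all others and an estimate of -1.01 on the log2 scale (SE 0.381; adjusted p = 0.193 by edgeR). Ccna2 (cyclin A2) was at -0.37 (SE 0.141, edgeR adjusted p = 0.201). The entry genes were mixed, as Ccnb1 and Ccnb2 were at -0.39 and -0.14 while Cdk1 was at 0.12, each with overlapping groups. Plk1, Aurka, Aurkb, Birc5 and Cdc20 had estimates of 0.30, -0.03, -0.16, 0.13 and -0.08, and Top2a and Mki67 had 0.21 and 0.25.

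Outside the 43 genes, 3 genes of the surrounding lists passed edgeR's test, where 2.72% of all genes did. These were 1 of 50 other mitotic genes and 1 of 22 regulators of mitotic transcription. The third was 1 of 17 tested brakes, G1 cyclins and their kinases. Psrc1, which encodes a spindle protein, rose from 20.2 ± 6.86 CPM in NTC to 51.3 ± 16.8 CPM in miR139-KD (SD, n = 6 each; log2 fold change 1.36, SE 0.294, edgeR adjusted p = 0.0255). Its adjusted p was 0.0591 without the second NTC library and 0.0558 without the first miR139-KD library. Ccnd3, the G1 cyclin D3, fell to 148 ± 39.9 CPM from 404 ± 102, a change of -1.44 on the log2 scale with SE 0.197 (adjusted p = 0.00148 by edgeR). Rbbp4, a histone-binding subunit of the MuvB complex and others, fell to 69.4 ± 13.4 CPM from 108 ± 11.6, a change of -0.62 on the log2 scale with SE 0.146 (adjusted p = 0.0346 by edgeR). Its adjusted p rose above 0.05, to 0.0549 at the lowest and 0.0866 at the highest, without any 1 of NTC libraries 1, 2, 3, 5 and 6 or miR139-KD libraries 1, 3 and 4. It was 0.0506 with no filter on low counts and 0.0776 with the replicate number as a block, and the log2 fold change lay between -0.64 and -0.57 in all these fits. The 35 genes of G1/S and replication had 9 lower and 0 higher at an unadjusted p under 0.05, 0 called and a median of -0.15, and 27 of them had estimates below 0. The 50 other mitotic genes had a median of 0.16 with 6 higher and 1 lower. The 17 tested brakes, G1 cyclins and their kinases had 1 higher and 7 lower with a median of -0.18, and Cdkn1a (p21) was at -1.36 (SE 0.414, edgeR adjusted p = 0.103).

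Markers of other cells also differed between these groups. Multipotent progenitor markers summed to 567 to 1016 CPM in NTC and 212 to 289 CPM in miR139-KD, 7 B cell markers to 1063 to 2292 CPM and 29.5 to 584 CPM, 5 T cell markers to 44.3 to 61.6 CPM and 0.780 to 13.6 CPM, and 6 megakaryocyte markers to 65.1 to 314 CPM and 1105 to 2791 CPM. Granulocyte and monocyte markers spread widely in both groups, with 1596 to 19171 CPM in NTC against 1364 to 18006 CPM in miR139-KD. Their part in the differences of the mitotic genes was not tested.

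In the libraries labelled Pus10-KO, 31 of 42 mitotic genes had estimates below 0 against Pus10-WT, but none passed the test, and the sign of their median turned with the library left out. edgeR called 9 of 14657 genes (0.0614%) and 0 of the 42 mitotic genes tested, since Cdc25c did not pass the filter on low counts. At an unadjusted p under 0.05 (6.86% of all genes), 1 mitotic gene was lower (3.33% of all genes) and 0 were higher (3.53%), and DESeq2 called 0 of 43 (1.46%). The median log2 fold change was -0.41, with 11 genes above 0, against a median near 0 for all genes. The median SE of the mitotic genes was 0.889, where that of all genes was 0.394. Without the third Pus10-WT library the median was 0.49, with 31 of 42 genes above 0. Without the second Pus10-WT library it was -0.84 (3 of 43 above 0), and without the first Pus10-KO library it was -0.83 (3 of 42 above 0). It was -0.18 without the second Pus10-KO library and -0.19 without the third. In each of these fits 0 mitotic genes were called.

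**Figure D5:**
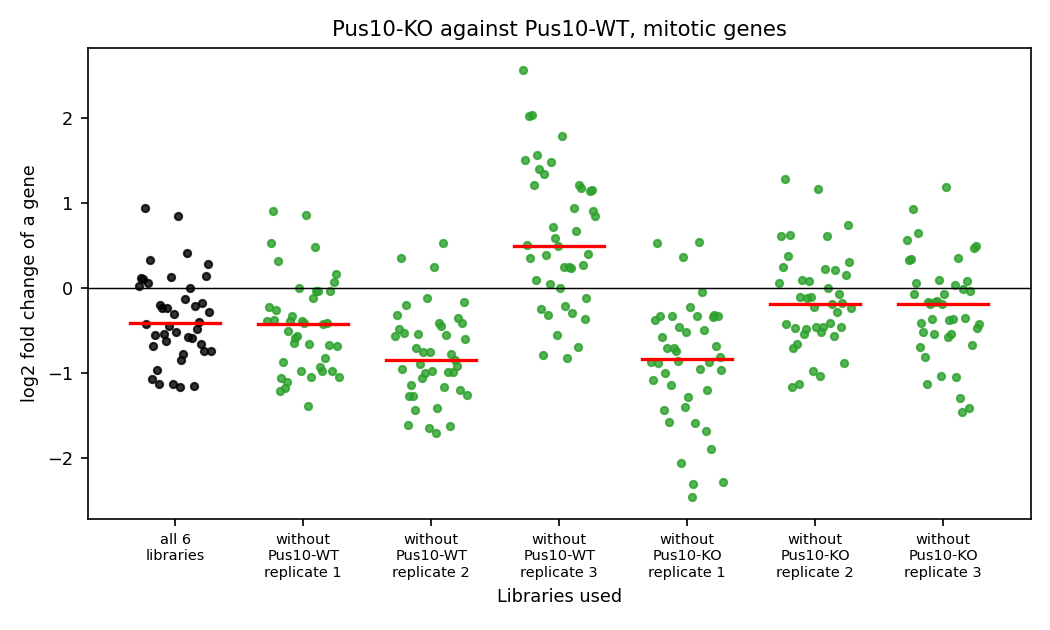
log2 fold change of the mitotic genes, Pus10-KO against Pus10-WT (vertical axis), with all 6 libraries (black) and with 1 library left out (green); 1 point per gene except Cdc25c, and red lines at the median over all mitotic genes tested in that fit. The median lies at -0.41 with all libraries and at 0.49 without the third Pus10-WT library.

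Cdca2, which recruits the phosphatase PP1 to chromosomes, was the 1 gene with separated groups (6.13% of all genes were separated and lower, 7.36% separated and higher). Cdca2 (chr14:67676331-67715841) had 23.5, 11.97 and 31.8 CPM in Pus10-WT and 10.4, 10.4 and 10.3 CPM in Pus10-KO. The 3 Pus10-KO libraries were nearly equal, and the second Pus10-WT library lay close to them. The log2 fold change was -1.13 (SE 0.413, edgeR adjusted p = 0.644).

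For the genes of entry, all 6 tested estimates were below 0 with a median of -0.55, and none passed the test. Ccnb2 had 25.0, 0 and 120 CPM in Pus10-WT and 39.8, 29.2 and 31.2 CPM in Pus10-KO. The Pus10-KO values all lay inside the Pus10-WT range, and the log2 fold change was -0.56 with a 95% interval of -3.80 to 2.69. Ccnb1, with 41.6, 30.9 and 17.4 CPM in Pus10-KO, also lay inside its Pus10-WT range. Cdk1 was at -0.54 (SE 0.422; adjusted p = 0.932 by edgeR), and Ccna2 had -1.07 (SE 0.939). Kinetochore genes had a median of -0.59 with 5 of 5 below 0, and Cenpf was at -0.45 (SE 1.24). Of the kinases, Plk1 was at -0.48, Aurka at 0.10 and Aurkb at 0.94, the last with an SE of 1.32. Aurkb had 14.2, 0 and 30.6 CPM in Pus10-WT and 43.7, 13.8 and 29.7 CPM in Pus10-KO, so that the groups overlapped. Cdc20 was at -0.96 (SE 0.567) and Birc5 at -0.42. Top2a, with 56.7, 5.70 and 125 CPM against 108, 68.0 and 33.1 CPM, was at 0.14 (95% interval -1.92 to 2.20), and Mki67 was at -0.000376 (SE 0.915). Ckap2l, Racgap1, Kif20a, Tacc3 and Cenpa were at -1.13, -0.66, -0.78, -0.74 and -0.62, and Kif23 was at 0.41, each with overlapping groups.

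Around the mitotic genes, 0 genes of the surrounding lists were called. The 50 other mitotic genes had 48 tested, 11 estimates above 0 and 37 below, with a median of -0.22. The 17 tested brakes, G1 cyclins and their kinases had 3 higher and 3 lower at an unadjusted p under 0.05, each with separated groups, and a median of 0.01. Of those that were higher, Cdkn1b (p27) had 10.3 ± 1.71 CPM in Pus10-WT and 26.8 ± 4.82 CPM in Pus10-KO (SD, n = 3 each; log2 fold change 1.36, SE 0.312, edgeR adjusted p = 0.455, DESeq2 adjusted p = 0.0112). Cdkn1c (p57), an inhibitor known from quiescent HSCs, had 4.91 ± 2.49 and 17.5 ± 1.88 CPM, 1.82 higher on the log2 scale with SE 0.497 (adjusted p = 0.507 by edgeR and 0.0454 by DESeq2). Of those that were lower, Cdk4, a G1 kinase, had 545 ± 23.1 CPM in Pus10-WT and 431 ± 39.9 CPM in Pus10-KO (log2 fold change -0.36, SE 0.0996, edgeR adjusted p = 0.508), and Ccnd1 (cyclin D1) was at -0.95 (SE 0.324, edgeR adjusted p = 0.603). Plasma cell markers (Jchain, Igkc, Ighm, Mzb1, Sdc1) summed to 17827 to 25084 CPM in Pus10-WT and 38.5 to 49.2 CPM in Pus10-KO, where Mzb1 was at 0 in all 3 libraries, and B cell markers to 111 to 141 CPM and 59.8 to 71.4 CPM. By library, the plasma cell markers summed to 17827, 24278 and 25084 CPM in Pus10-WT, and the mitotic genes to 1028, 362 and 2139 CPM. Granulocyte and monocyte markers summed to 502 to 764 CPM in Pus10-WT and 564 to 3630 CPM in Pus10-KO, which overlapped. Of these, Ctsg was at 0 in all Pus10-WT libraries, and Ngp and Ltf were at 0 in all Pus10-KO libraries. The part of plasma cells, B cells, granulocytes and monocytes in the differences and the spread of the mitotic genes was not tested.

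The effects of the 3 treatments on the mitotic genes were not shown to differ from each other. In 1 fit of all 6 groups, the difference between 2 effects was called for 0 of 43 mitotic genes in each of the 3 pairs, where edgeR called 0.0226%, 0.0510% and 0.294% of 17664 genes. In this fit the spread of each gene was estimated over all 6 groups, the widely spread Pus10-WT libraries among them. The median SE of the mitotic genes was 0.652 for PUS10-OE minus miR139-KD. It was 0.167 and 0.226 in the separate fits of these 2 experiments. The lack of calls therefore does not show that the effects were alike. At an unadjusted p under 0.05, the effect of PUS10-OE differed from that of Pus10-KO in 1 mitotic gene (Cdca2; 5.75% of all genes), and from that of miR139-KD in 0 genes (8.47%). The effect of miR139-KD differed from that of Pus10-KO in 5 genes (10.1%): Cdca2, Racgap1, Ckap2l, Cdc25c and Nuf2. For Cdca2 the effect of miR139-KD exceeded that of Pus10-KO by 1.12 (SE 0.353, edgeR adjusted p = 0.261).

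The overexpression and knockdown experiments share no library, and 3 mitotic genes were higher at an unadjusted p under 0.05 in both: Aspm, Cenpf and Kif20b. They made up 33.3% of the 9 that were higher in the first and 37.5% of the 8 that were higher in the second. Of the 12615 genes tested in both, 131 (1.04%) were higher in both, which is 20.8% of those higher in the first and 12.5% of those higher in the second. Cenpf was 0.72 higher with PUS10-OE and 0.62 higher with miR139-KD on the log2 scale. Kif20b was 0.77 and 0.42 higher, and Aspm 0.61 and 0.60. In Pus10-KO against Pus10-WT the same genes had estimates of -0.45, -0.13 and 0.12, with SEs of 1.24, 0.517 and 1.00.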

How the data were processed

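HSCs were sorted into lysis buffer and made into Smart-seq2 libraries cut by Tn5, which do not mark strand, per the labels' protocols. The deposited values were whole-number read counts per gene, with no normalization by the authors, for 55487 Ensembl IDs, of which GENCODE M21 (GRCm38) gave 55394 a symbol. Per the submitters' processing notes, the genome build was mm10 and the tools were HISAT2 2.1.0, HTSeq 0.11.2 and DESeq2. The annotation release and the strand setting are not given in the sources used here. The 5 summary entries stayed out of all sums: 3.70% to 12.01% of reads fell in no gene, and 6.53% to 20.1% were ambiguous. The 42 pairs of libraries within groups were all further apart than sampling noise (chi-square over its degrees of freedom was at least 31.9). Reads carry no molecular identifiers, so floors of 3 counts cover counting error only.

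Each comparison was fitted on its 2 groups with edgeR 4.0.16 in R 4.3.3 (filterByExpr, TMM, robust quasi-likelihood F test, two-sided). A gene was called at an adjusted p under 0.05 (Benjamini-Hochberg, over all tested genes). SEs were derived from the fold change and F. Differences between effects were contrasts in 1 fit of all 6 groups. Groups were called separated where no library of one lay within the range of the other. CPM values were computed from the counts with TMM factors over all 24 libraries, and experiments were compared by level without a test. Fits were tested on simulated counts. Alternatives were DESeq2 1.42.0, limma-voom (limma 3.58.1) with quality weights, other scalings and filters, 1 fit of all 6 groups, a block for the replicate number, and leaving out each library. Ratios of levels without single Pus10-WT libraries were added after the data were seen. Figures were drawn with matplotlib 3.10.9.

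The 43 genes, their roles and the surrounding lists were chosen with earlier results of these data known. Of the stem cell markers, 1 is not reported here. Named were 12 standard mitotic genes in every comparison, the 10 with the lowest p, any called in some fit, up to 4 genes of each surrounding list, and the 5 highest and 5 lowest per kb. Other genes named for a value at the end of a range, a count or a library were chosen after their values were seen.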

Additional observations from a re-analysis of the deposited data

Results flagged for a closer look

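Among the 6 libraries of NTC and of miR139-KD, single libraries stood apart from the other 5 for 11 of the 86 sets of values tested (43 genes in 2 groups), by a gap to the nearest other library that exceeded Dixon's 95% critical share of the whole range. Chance alone flags about 1 in 20 such sets, and sets of genes that vary together are not independent.

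In NTC, the fourth library stood high for Bub1b at 106 CPM, for Aurkb, the kinase of the passenger complex, at 198 CPM, and for Kif20a at 38.3 CPM. The fifth NTC library stood high for Bub1, a checkpoint kinase, at 52.0 CPM and for Kif2c, a microtubule-depolymerising kinesin, at 73.4 CPM. Low values were those of Tpx2, which activates Aurora A at the spindle, at 67.9 CPM in the second NTC library and of Cks2 at 154 CPM in the sixth.

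In miR139-KD, the first library stood high for Mki67 at 544 CPM and for Anln at 75.3 CPM. The fifth stood high for Ccna2 at 167 CPM, and the third stood low for Cdca2 at 29.8 CPM. The fourth NTC and first miR139-KD libraries also had the highest sums of all mitotic genes in their groups, 6401 and 7006 CPM.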

How the results depend on the processing

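The count of mitotic genes called was 0 under edgeR in all 3 comparisons and in the 3 differences between effects. It became 5 for PUS10-OE and 3 for miR139-KD under DESeq2, 1 for miR139-KD under limma-voom and with a filter of mean CPM 10, and 0 to 2 for miR139-KD with 1 library left out; for Pus10-KO it stayed 0 in every fit. Over all genes, PUS10-OE had 0 called and 250 under DESeq2, 9 with the filter of mean CPM 10 and 5 with all 6 groups in 1 fit. miR139-KD had 361 called, 1075 under DESeq2, 792 with all 6 groups in 1 fit and 196 to 340 with 1 library left out. Pus10-KO had 9 called, 237 under DESeq2, 3 under limma-voom, 15 with all 6 groups in 1 fit and 0 to 10 with 1 library left out. The cause of these changes was not tested.

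Libraries with the same number did not deviate together (correlations from -0.0196 to 0.0197). This gave no sign of pairs but cannot exclude them, and the main fits did not use the numbers. With the replicate number as a block, 188 genes were called for miR139-KD, 2 for Pus10-KO and 0 mitotic genes in any comparison, and the Pus10-KO median was -0.16.

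With 1 library left out, the median of the mitotic genes ran from 0.04 to 0.24 for PUS10-OE, from 0.12 to 0.22 for miR139-KD and from -0.84 to 0.49 for Pus10-KO. In the Pus10 knockout experiment these genes spread widely between libraries, with counts of 0 for some genes in single libraries. The median SE of their log2 fold changes was 0.889, which limits what a difference of 2-fold can show.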
